A study of Mus musculus with 20 samples.

Results

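Myc and the genes of ribosome biogenesis were followed in mouse donor T cells that lacked or kept the DNA methyltransferase Dnmt3a. The 34 genes were chosen by name, as Myc and well-known nucleolar factors that serve ribosome assembly. Of these, 33 were found among the 17101 genes of the expression table. Dkc1, the pseudouridine synthase of the box H/ACA particles, was not analysed here. All 33 passed the filter on low values in every comparison.

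The study asked how loss of Dnmt3a in donor T cells alters their response to a foreign host after bone marrow transplantation. Donors were B6 mice 6 to 12 weeks old, either knockouts (KO) in which both floxed (2loxP) copies of Dnmt3a were deleted by a Cre driven by the Cd4 promoter, or wild-type (WT) littermates. Irradiated F1 recipients 8 to 12 weeks old received marrow with these T cells, and on day +10 donor T cells were sorted from the spleen. RNA was sequenced from 20 libraries in 5 groups of 4, namely CD4+, CD8+ and double-positive (DP, carrying both coreceptors) cells of KO animals 1 to 4, and CD4+ and CD8+ cells of WT animals 2, 3, 5 and 6. A WT DP group was not used here. The Cd4 promoter is active from the DP stage of the thymus onward, so both CD4+ and CD8+ KO cells descend from cells that made Cre, and all cells had passed through an irradiated host with graft-versus-host disease. In bulk RNA of this kind, fewer cells of a type and less RNA per cell cannot be told apart.

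Cells that divide need new ribosomes, and Myc is the transcription factor that sets this programme in motion in activated T cells. With its partner Max it binds E-box DNA near the starts of genes for RNA polymerase I, for the small nucleolar ribonucleoproteins (snoRNPs) that modify ribosomal RNA, and for the factors that fold and cut the precursor into the small and large subunits. Much of this happens in the nucleolus, whose abundant proteins nucleolin and nucleophosmin hold the assembly line together.

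Each library had between 37547651 and 46966318 reads on genes. Levels are given as normalized counts, which are reads divided by a scaling factor of each library, and values in a group are listed in the order of animal number, 1 to 4 for KO and 2, 3, 5 and 6 for WT. Means are given ± SD with n = 4 libraries. Dnmt3a itself measured 1658, 1628, 1639.6 and 1385 in KO CD4 cells against 4906, 4690.0, 4839 and 5171 in WT CD4 cells. In CD8 cells it was 2007, 1287, 1515 and 1664 in KO and 3549, 3542, 3756 and 3812 in WT, and in KO DP cells it was 1571, 1021, 650.4 and 1332. Every KO library was below every WT library, with log2 fold changes of -1.64 in CD4 (limma adjusted p = 1.26e-05) and -1.2 in CD8 cells (0.000654), and the remaining reads were not assigned to exons inside or outside the deleted part. The T cell receptor gene Cd3e was at 16885 or more in all 20 libraries, Cd4 was between 44804 and 74386 in CD4 libraries and between 8758 and 15351 in DP libraries, and Cd8a was at 41594 or more in CD8 and DP libraries. Markers of the other subset were present in places: KO CD4 replicate 1 had 3771 counts of Cd8a where the other CD4 libraries had at most 585.6, and Cd4 in CD8 libraries was 302.0, 335.6, 348.8 and 458.4 in KO and 12.2, 79.6, 9.88 and 28.7 in WT. Between KO and WT CD8 cells limma called Cd4 (log2 fold change 3.88), Cd8b1 (0.38) and Cd247 (0.36) higher and Cd3e (-0.39) lower in KO, with Cd3d, Cd3g, Cd8a and Lck not called. KO DP replicate 3 stood apart from the rest, with 11783 genes with reads where the other 19 libraries had 13203 or more, and it is included in the DP means and comparisons unless its omission is stated.

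Over the whole set, the summed share of reads was alike in all groups, though this sum is carried in large part by Ncl and Npm1 and says little about the less abundant genes. The 33 genes took 0.481 ± 0.0252% of reads in KO CD4 cells, 0.477 ± 0.0257% in WT CD4 cells, 0.475 ± 0.0451% in KO CD8 cells, 0.486 ± 0.0127% in WT CD8 cells and 0.476 ± 0.0486% in KO DP cells, and the ranges of all groups overlapped. In the test of each gene across the table (limma on log2 of the normalized count + 1, Benjamini-Hochberg adjusted p under 0.05, genes with a mean of at least 10), KO against WT CD4 cells called 1 of the 33 higher, beside 8.59% of all 12391 genes tested, and 1 of the 33 lower, beside 9.77% of all genes. In CD8 cells 4 of the 33 were higher, beside 12.6% of all 12383 genes tested, and 4 were lower, beside 12.5%. The member share therefore lay near or below the share of all genes, and it is not a result about ribosome biogenesis as such. The median log2 fold change of the 33 was 0.02 in CD4 cells, where that of all genes was -0.05, and 0.01 in CD8 cells, where that of all genes was -0.04. These medians lay near 0, and those of the 33 turned below 0 without KO CD4 replicate 3 (-0.00578) in CD4 cells and without KO CD8 replicate 1 (-0.0106) or 3 (-0.0185) or WT CD8 replicate 3 (-0.00235) or 6 (-0.00389) in CD8 cells. Under quantile normalization the order turned, with 0.00663 for the 33 and 0.00885 for all genes in CD4 cells and -0.0338 and 0.0147 in CD8 cells. Groups did not overlap for 8 of the 33 in CD4 cells (25.6% of all genes) and for 8 in CD8 cells (30.6% of all genes). Single genes differed in both directions, with Nop56 lower and Pes1 higher in KO cells of both subsets and, in CD8 cells, Gnl3 lower and Ncl higher.

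Those counts moved when libraries were left out. In CD4 cells the number called lower went from 1 to 3 without KO CD4 replicate 3, to 2 without KO CD4 replicate 4 and to 0 without WT CD4 replicate 3 or 6, and the number called higher went to 2 without KO CD4 replicate 2, to 4 without KO CD4 replicate 3 and to 0 without WT CD4 replicate 3, 5 or 6. Calls over all genes moved too, from 1064 higher and 1210 lower with all CD4 libraries. They were 1209 and 1412, 1343 and 1620, and 934 and 1143 without KO CD4 replicates 2, 3 and 4. Without WT CD4 replicates 3, 5 and 6 they were 441 and 535, 471 and 554, and 295 and 333. In CD8 cells the number called lower went from 4 to 9 without KO CD8 replicate 3 and to 2 without KO CD8 replicate 1 or 2 or any of the WT CD8 libraries, and the number called higher went to 2 without KO CD8 replicate 4 or WT CD8 replicate 3 or 5 and to 1 without WT CD8 replicate 2 or 6. Over all genes 1566 were higher and 1552 lower with all CD8 libraries. Those counts were 1599 and 1794, 1405 and 1414, 1986 and 2106, and 1205 and 1275 without KO CD8 replicates 1, 2, 3 and 4. Without WT CD8 replicates 2, 3, 5 and 6 they were 869 and 884, 845 and 867, 859 and 852, and 822 and 811. KO CD8 replicate 3 was the highest of its group for many of the 33, with a median deviation of 0.13 on the log2 scale from their means over all libraries, where KO CD8 replicate 2 stood at -0.15.

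Myc, the transcription factor at the head of the programme, was lower in KO than in WT CD8 cells, while the CD4 groups lay within each other's spread. In CD8 cells Myc measured 2086, 1684, 3522 and 2610.1 in KO and 3739.7, 3556, 4249 and 3506 in WT libraries. In CD4 cells Myc was 3033, 2681, 3314 and 3076 in KO and 3109, 3063, 2849 and 2849 in WT. KO DP cells had 1791, 2024, 2795 and 2862. Among CD8 libraries the KO values were spread over a range wider than the group difference, with replicate 3 just reaching the WT range and the other KO libraries below it, while in CD4 cells the genotypes were interleaved. By group mean the order was WT CD8 (3763 ± 339.4), KO CD4 (3026 ± 261.1), WT CD4 (2967 ± 138.2), KO CD8 (2475 ± 794.0) and KO DP (2368 ± 541.0); KO CD4 and WT CD4 did not differ beyond their spread, nor did KO CD8 and KO DP. In CD8 cells the log2 fold change was -0.65 (95% interval -1.09 to -0.22), which passed the limma threshold with adjusted p = 0.0368 and gave p = 0.0571 in a two-sided exact permutation test, where 4 against 4 libraries cannot go below 0.0286. In CD4 cells it was 0.03 (95% interval -0.16 to 0.21; limma adjusted p = 0.842; exact permutation p = 0.714). The CD8 call depended on single libraries, as it ended in limma without KO CD8 replicate 1 (adjusted p = 0.0636), 2 (0.0617) or 4 (0.0586) and without WT CD8 replicate 2 (0.0828), 3 (0.0757), 5 (0.101) or 6 (0.0745), and it had adjusted p = 0.00339 without KO CD8 replicate 3. With edgeR on the recovered reads adjusted p was 0.0529 and with DESeq2 it was 0.0146, without the variance trend it was 0.0711, and over 9 alternative settings that keep all libraries it ranged from 0.0146 to 0.0711.

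The interaction of genotype and subset asked whether the KO minus WT difference of a gene is the same in CD4 and CD8 cells. For Myc it was higher by 0.68 in CD4 than in CD8 cells on the log2 scale, with adjusted p = 0.541 in limma. With each animal as a block, since CD4 and CD8 cells came from the same animals, adjusted p was 0.0489, and over the 10 alternative settings it ranged from 0.0489 to 1.00. No gene of the 33 was called in the interaction without the block by limma, edgeR or DESeq2, beside 0.0161% of 12446 genes in limma, and 2 of the 33, Myc and Noc2l, had an unadjusted p under 0.05. With the block 1 of the 33, Myc, was called beside 1.39% of all genes. Of the 10 alternative settings, the pairing of animals alone brought a call.

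**Figure D1:**
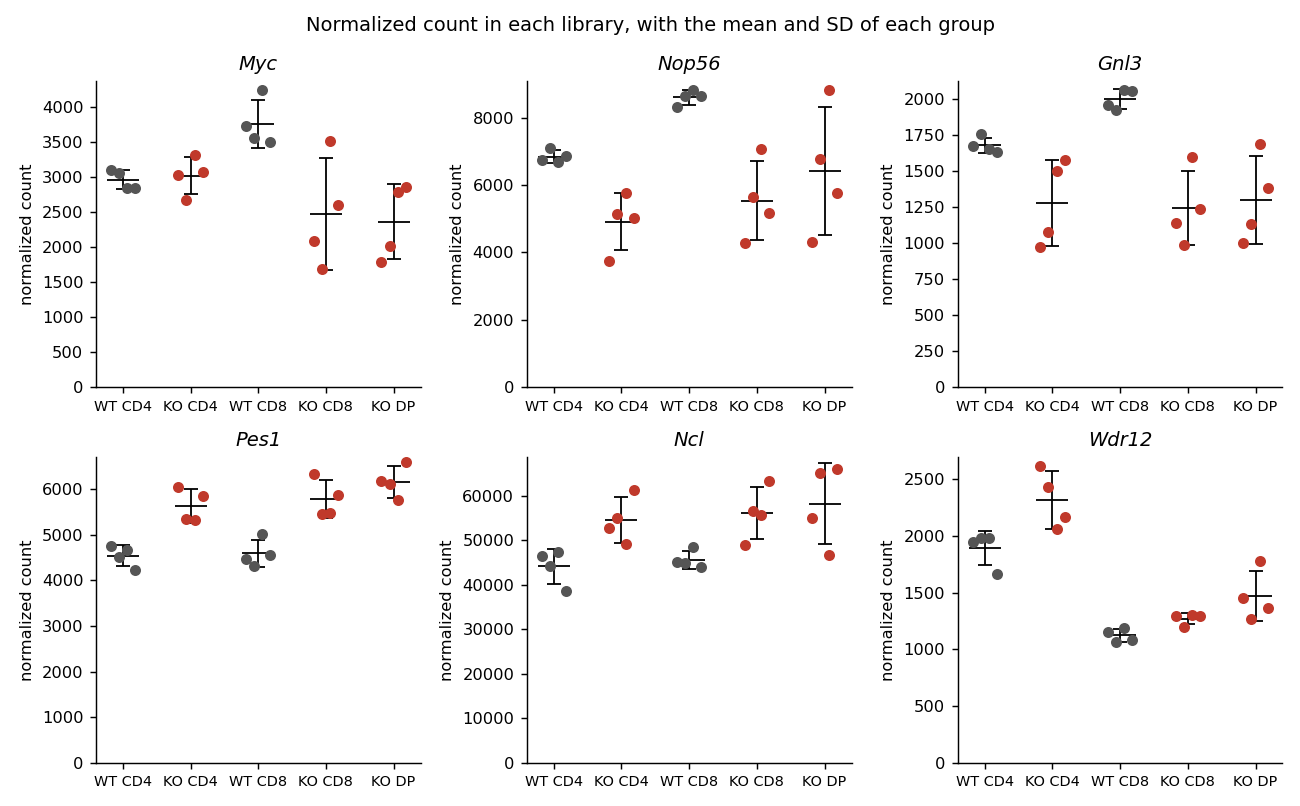
Normalized counts (vertical axes, from 0) of Myc, Nop56, Gnl3, Pes1, Ncl and Wdr12 in each of the 20 libraries (points; WT grey, KO red), by group, with the group mean and SD (horizontal marks and bars). KO CD8 libraries of Nop56 (4277 to 7058) and Gnl3 (988.2 to 1593) lie below all WT CD8 libraries, those of Pes1 and Ncl lie above, and Wdr12 follows the subset, with CD4 libraries above CD8 libraries.

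RNA polymerase I transcribes the ribosomal RNA precursor, and limma called 0 of its 3 genes in either subset (0 at an unadjusted p under 0.05, and 0 with edgeR and DESeq2). Polr1b, the second-largest subunit of the enzyme, was 1321, 1341, 1704 and 1496 in KO CD4 and 1898, 1797, 1651 and 1475 in WT CD4 cells. The CD8 values were 1296, 1047, 1613 and 1644 in KO and 1664, 1494, 1829.6 and 1562 in WT, and in KO DP cells 1157, 1246, 1144 and 1561. In each subset 2 of the 4 KO libraries were below the WT range, and the genotypes overlapped (log2 fold changes -0.22 and -0.25, limma adjusted p = 0.188 and 0.243). Polr1a, the largest subunit, was 3501, 2956, 3347 and 3246 in KO CD4, 3416, 2886, 3041 and 2761 in WT CD4, 2761, 2409, 3197 and 3410.4 in KO CD8, 2912, 2556, 2629 and 2719 in WT CD8 and 2745, 2563, 1689 and 3348 in KO DP cells. Rrn3, the initiation factor that brings the polymerase to ribosomal DNA, averaged 2504 ± 120.3 in KO CD4, 2590.3 ± 225.3 in WT CD4, 2675 ± 175.0 in KO CD8, 2494 ± 42.1 in WT CD8 and 2486 ± 300.7 in KO DP cells. Polr1a and Rrn3 overlapped between genotypes in both subsets, with log2 fold changes of 0.11 and -0.05 in CD4 and 0.11 and 0.10 in CD8 cells.

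Among the box C/D snoRNP proteins, which place methyl groups on ribosomal RNA, Nop56 fell in KO cells of both subsets. Nop56, a core protein of the particle, measured 3748, 5128, 5761 and 5008 in KO CD4 and 6744, 7106, 6682 and 6854 in WT CD4 cells. In CD8 cells Nop56 was 4277, 5649, 7058 and 5165 in KO and 8305, 8644, 8833 and 8647 in WT. In KO DP cells Nop56 was 4304, 6764, 8826 and 5758. Every KO library of a subset was below every WT library of that subset, and the WT libraries lay close together while KO libraries were spread widely. Its log2 fold change was -0.50 ± 0.12 (SE) in CD4 cells (limma adjusted p = 0.0191; lower in 4 of 4 KO libraries) and -0.66 ± 0.13 in CD8 cells (limma adjusted p = 0.00775; 4 of 4). The CD4 call ended without WT CD4 replicate 3 (adjusted p = 0.0563) or 6 (0.0611), in the fit over all 20 libraries (0.0735) and without the variance trend (0.0518), with 0.00224 to 0.0735 over the alternative settings, while the CD8 call was kept without each library in turn (0.000963 to 0.0293).

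The other box C/D proteins were not called between genotypes by limma with all libraries. Fbl, the methyltransferase fibrillarin, was 6288, 6510.0, 6314 and 7073 in KO CD4 and 6167, 6058, 6197 and 5391 in WT CD4 cells. In CD8 cells Fbl was 5709, 6649.7, 7364 and 6515 in KO and 5858, 6286, 6546 and 6141 in WT, and in KO DP cells 5986, 7583, 8765 and 7757. All KO CD4 libraries of Fbl were above the WT CD4 libraries, by a log2 fold change of 0.14 that did not pass the threshold (limma adjusted p = 0.203), and the CD8 groups overlapped. Nop58, the partner of Nop56 in the particle, averaged 5366 ± 492.4 in KO CD4, 5902 ± 479.1 in WT CD4, 5362 ± 861.4 in KO CD8, 6372 ± 248.1 in WT CD8 and 5507 ± 748.3 in KO DP cells. Rrp9, which binds the U3 snoRNA, averaged 1909 ± 214.5 in KO CD4, 2033 ± 55.5 in WT CD4, 1757 ± 221.4 in KO CD8, 1782 ± 115.1 in WT CD8 and 2039 ± 342.0 in KO DP cells. Nop58 had log2 fold changes of -0.14 in CD4 and -0.26 in CD8 cells, where limma gave adjusted p = 0.0967, and adjusted p = 0.00941 without KO CD8 replicate 3. Rrp9 did not differ between genotypes beyond its spread in either subset.

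Of the box H/ACA proteins, which guide pseudouridine into ribosomal RNA, Nhp2 and Gar1 were measured and limma called 0 of the 2 in either subset (0 at an unadjusted p under 0.05, and 0 with edgeR and DESeq2). Nhp2 was 3739.8, 4034, 3403 and 3499.9 in KO CD4 and 3395, 3468, 3471 and 2857 in WT CD4 cells. The CD8 values were 4029, 4526, 4397 and 3732 in KO and 3623, 3988, 3999 and 3835 in WT, and in KO DP cells 4179, 5415, 9894 and 4139. KO DP replicate 3 stood far above every other library for this short transcript, and the CD4 and CD8 genotypes overlapped (log2 fold changes 0.16 and 0.11; limma adjusted p = 0.233 and 0.326). Gar1 averaged 1820.2 ± 162.8 in KO CD4, 1890.1 ± 132.3 in WT CD4, 1887 ± 373.0 in KO CD8, 2059 ± 112.6 in WT CD8 and 2010.4 ± 368.4 in KO DP cells.

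Of the 7 small-subunit factors, which form the processome on the precursor of 18S ribosomal RNA, limma called 1 higher (Rrp12) and 1 lower (Wdr75) in KO CD8 cells, beside 12.6% and 12.5% of all genes. Rrp12, a factor for release and export of pre-ribosomes, measured 2717, 2594, 1993 and 2392 in KO CD4 and 2058, 2139, 1894 and 1849 in WT CD4 cells. In CD8 cells Rrp12 was 2816, 2403, 2235 and 2182 in KO and 1865, 1905, 1907 and 1696 in WT. In KO DP cells Rrp12 was 2908, 2701, 1978 and 2289.6. All KO CD8 libraries were above all WT CD8 libraries, whereas KO CD4 replicate 3 lay inside the WT CD4 range. Its log2 fold change was 0.38 ± 0.095 (SE) in CD8 cells (limma adjusted p = 0.0188; higher in 4 of 4 libraries) and 0.28 ± 0.11 in CD4 cells (adjusted p = 0.0872, and 0.0190 without KO CD4 replicate 3). The limma call in CD8 cells ended without WT CD8 replicate 2 (adjusted p = 0.0514) or 6 (0.0646).

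Wdr75, part of the early UTP-A complex, was 1634, 1649, 1866 and 1926 in KO CD8 and 2206, 2147, 2194 and 1981 in WT CD8 cells. In CD4 cells it averaged 1799 ± 128.8 in KO and 1911 ± 119.6 in WT, and in KO DP cells 1800.1 ± 190.5. All KO CD8 libraries were below the WT CD8 libraries, by a log2 fold change of -0.27 with limma adjusted p = 0.0405. Of the alternatives that leave out a library, 2 of 8 kept that call, those without KO CD8 replicate 3 or 4, and adjusted p ranged from 0.0283 to 0.112. The call also ended with quantile normalization (0.0522), without the trend (0.0573) and in the fit over all 20 libraries (0.0522), with 0.0222 to 0.0573 over the alternative settings. Wdr43, another UTP-A protein, was 4791, 4715, 4932 and 5016 in KO CD4, 5132, 4745, 4706 and 4655 in WT CD4, 5063, 4006, 5056 and 4830.1 in KO CD8, 4835, 4629.8, 4751 and 4471 in WT CD8 and 4492, 4215, 4372 and 4892 in KO DP cells. Its genotypes overlapped in both subsets, with log2 fold changes of 0.02 and 0.01.

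Utp20, a long scaffold protein of the processome, averaged 2321 ± 167.3 in KO CD4, 2296 ± 215.9 in WT CD4, 2219.9 ± 304.7 in KO CD8, 1945 ± 105.9 in WT CD8 and 1889 ± 716.1 in KO DP cells. Heatr1, which also supports RNA polymerase I, averaged 4236 ± 180.7 in KO CD4, 4395 ± 257.4 in WT CD4, 4347 ± 419.3 in KO CD8, 4065 ± 148.6 in WT CD8 and 3646 ± 703.9 in KO DP cells. Nop14 averaged 2093 ± 165.0 in KO CD4, 1974 ± 81.5 in WT CD4, 2233 ± 138.8 in KO CD8, 2053 ± 136.3 in WT CD8 and 2055 ± 422.0 in KO DP cells, and its binding partner Noc4l averaged 2199 ± 142.6 in KO CD4, 2094 ± 108.9 in WT CD4, 2078 ± 139.3 in KO CD8, 2196 ± 82 in WT CD8 and 2223 ± 137.8 in KO DP cells. Of these 4, limma called 0 between genotypes in either subset (0 at an unadjusted p under 0.05, and 0 with edgeR and DESeq2), and their log2 fold changes lay between -0.08 (Noc4l in CD8) and 0.18 (Utp20 in CD8).

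Of the 11 large-subunit factors limma called 1 higher (Pes1) in KO CD4 cells, beside 8.59% of all genes, and 1 higher (Pes1) and 1 lower (Gnl3) in KO CD8 cells, beside 12.6% and 12.5%. Gnl3, the nucleolar GTPase nucleostemin, measured 968.4, 1075, 1495 and 1572 in KO CD4 and 1671, 1753, 1653 and 1631 in WT CD4 cells. In CD8 cells Gnl3 was 1140.3, 988.2, 1593 and 1236 in KO and 1959, 1925, 2062 and 2051 in WT. In KO DP cells Gnl3 was 995.9, 1130.0, 1687 and 1379.7. Each KO library was below every WT library of its subset, and in CD4 cells replicates 3 and 4 came close to the WT range. In CD8 cells the log2 fold change was -0.71 ± 0.13 (SE; limma adjusted p = 0.00642; lower in 4 of 4 libraries), and the call was kept without each library in turn (0.000782 to 0.0268). In CD4 cells it was -0.42 ± 0.15 with limma adjusted p = 0.0742, and it passed without KO CD4 replicate 3 (0.0414) or 4 (0.0353).

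Pes1, Bop1 and Wdr12 form the PeBoW complex, which is needed to mature the large-subunit RNA. Pes1 measured 6037, 5333, 5309 and 5852 in KO CD4 and 4755, 4516, 4658 and 4231 in WT CD4 cells. In CD8 cells Pes1 was 6332, 5444, 5471 and 5864 in KO and 4462, 4323, 5014 and 4559 in WT. The KO DP values were 6185, 6099, 5752 and 6588. All KO libraries of Pes1 were above all WT libraries whatever the subset, and the rise was 0.31 ± 0.074 (log2, SE) in CD4 cells (limma adjusted p = 0.0199) and, for CD8 cells, 0.33 ± 0.075 (limma adjusted p = 0.0133), or 1.24-fold and 1.26-fold, in 4 of 4 libraries each. The CD4 call ended without WT CD4 replicate 3 (adjusted p = 0.0581), 5 (0.0509) or 6 (0.0686), and the CD8 call was kept without each library in turn (0.00968 to 0.0488). Bop1 averaged 4259 ± 128.8 in KO CD4, 4270.1 ± 256.5 in WT CD4, 4208 ± 420.3 in KO CD8, 4706 ± 203.9 in WT CD8 and 4416 ± 384.4 in KO DP cells, and its log2 fold changes were -0.0024 in CD4 and -0.17 in CD8 cells (adjusted p = 0.154, and 0.0185 without KO CD8 replicate 3, the one high KO library).

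Wdr12 differed more between subsets than between genotypes. Its values are given in every library, as are those of Ddx21 and, for CD8 cells, Wdr75, by a choice made after they were seen, and they were 2619, 2429, 2058 and 2165 in KO CD4 and 1943, 1984, 1979 and 1667 in WT CD4 cells. In CD8 cells Wdr12 was 1291, 1196, 1302 and 1296 in KO and 1155, 1065, 1188 and 1081 in WT. The KO DP values were 1456, 1271, 1777 and 1367. Within each subset all KO libraries were above all WT libraries, by less than the gap between subsets, and 3 of the 4 DP libraries lay near the CD8 values, with DP replicate 3 between those of KO CD8 and KO CD4 cells. Between genotypes the log2 fold changes of 0.29 in CD4 and 0.18 in CD8 cells did not pass the threshold (limma adjusted p = 0.0682 and 0.129), though the CD4 difference passed without KO CD4 replicate 3 (0.0383) and with DESeq2 (0.0409; 0.0409 to 0.105 over the alternative settings).

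The remaining large-subunit factors were not called between genotypes by limma with all libraries and the settings above. Nop2, an RNA methyltransferase, averaged 2576 ± 320.9 in KO CD4, 3039 ± 98.2 in WT CD4, 2591 ± 421.4 in KO CD8, 3061 ± 100 in WT CD8 and 2541 ± 433.4 in KO DP cells. All KO CD4 libraries of Nop2 were below the WT CD4 libraries (log2 fold change -0.25; limma adjusted p = 0.0923, and 0.0434 without KO CD4 replicate 3), and in CD8 cells replicate 3 alone reached the WT range, with -0.25 and adjusted p = 0.112, or 0.00909 without that library. Noc2l averaged 5116 ± 339.5 in KO CD4, 5220.4 ± 89.4 in WT CD4, 4622 ± 680.1 in KO CD8, 5583 ± 179.1 in WT CD8 and 4749.6 ± 264.1 in KO DP cells, with a log2 fold change of -0.28 in CD8 cells (adjusted p = 0.0606, and 0.00397 without KO CD8 replicate 3), where it passed with quantile normalization (0.0321) and in the fit over all 20 libraries (0.0303; 0.0303 to 0.102 over the alternative settings). Nop16 averaged 1591 ± 64.2 in KO CD4, 1648 ± 233.6 in WT CD4, 1454 ± 105.6 in KO CD8, 1528 ± 109.6 in WT CD8 and 1952 ± 648.9 in KO DP cells. Ftsj3, a methyltransferase of pre-ribosomes, averaged 4812 ± 201.1 in KO CD4, 4598 ± 330.6 in WT CD4, 4825 ± 173.3 in KO CD8, 4755 ± 182.2 in WT CD8 and 4913 ± 134.7 in KO DP cells. Both overlapped between genotypes in each subset. Rrs1, which helps bring the 5S particle into the large subunit, averaged 2400.1 ± 141.3 in KO CD4, 2357 ± 78.6 in WT CD4, 2439.9 ± 173.4 in KO CD8, 2502 ± 130.8 in WT CD8 and 2522 ± 271.2 in KO DP cells. Wdr74 averaged 1331 ± 46.3 in KO CD4, 1184 ± 65.2 in WT CD4, 1255 ± 212.5 in KO CD8, 1327 ± 88.9 in WT CD8 and 1531 ± 225.0 in KO DP cells, and Nip7 averaged 2069.6 ± 95.4 in KO CD4, 1974 ± 68 in WT CD4, 1995 ± 190.1 in KO CD8, 1971 ± 56.4 in WT CD8 and 2308 ± 663.3 in KO DP cells. Of these, Wdr74 had non-overlapping CD4 groups, with KO higher by 0.17 (adjusted p = 0.177).

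Of 5 abundant nucleolar proteins limma called 2, Ncl and Ddx21, higher in KO CD8 cells, beside 12.6% of all genes. Ncl, nucleolin, measured 52665, 55098, 49276 and 61406 in KO CD4 and 46565, 44219, 47314 and 38664 in WT CD4 cells. In CD8 cells Ncl was 49042, 56616, 55658 and 63316 in KO and 45173, 44873, 48478 and 43902 in WT. In KO DP cells Ncl was 55007, 65166, 46692 and 65922. All KO CD4 and KO CD8 libraries were above all WT libraries of their subset, with KO DP replicate 3 the lowest of the KO libraries. The log2 fold change was 0.30 ± 0.088 (SE) in CD8 cells (limma adjusted p = 0.0365) and 0.31 ± 0.10 in CD4 cells (adjusted p = 0.0587; 0.0481 with edgeR, 0.0115 with DESeq2, up to 0.384 over the alternative settings, and 0.0434 without KO CD4 replicate 3). In CD8 cells the call was kept without KO CD8 replicate 1 or 3 and ended on leaving out each of the other 6 libraries (0.0564 to 0.106). It also ended without a filter (0.0518), without the trend (0.0578) and in the fit over all 20 libraries (0.0964), and quantile normalization reduced the log2 fold change to 0.09 (adjusted p = 0.481, where the alternative settings ranged from 0.00565 to 0.481).

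Ddx21, an RNA helicase that acts in ribosomal RNA transcription and processing, was 17168, 17486, 20312 and 18779.6 in KO CD8 and 15998, 15311, 16313 and 14913 in WT CD8 cells. In CD4 cells Ddx21 was 19574, 18307, 20906 and 20457 in KO and 18497, 16755, 17409 and 15477 in WT, and in KO DP cells 17798, 17733, 13216 and 17606. The CD8 groups did not overlap (log2 fold change 0.24; limma adjusted p = 0.0391) and the CD4 groups did, at KO replicate 2 (0.22; adjusted p = 0.0773, 0.0440 without that library and 0.0301 with DESeq2, with up to 0.300 over the alternative settings). The CD8 call was kept without KO CD8 replicate 1 or 2 and ended on leaving out each of the other 6 libraries (0.0535 to 0.117). It also ended without a filter (0.0531), without the trend (0.0706) and in the fit over all 20 libraries (0.102), and quantile normalization reduced the log2 fold change to 0.13 (adjusted p = 0.208; 0.00884 to 0.208 over the alternative settings). Npm1, nucleophosmin, averaged 34855 ± 3679 in KO CD4, 34349 ± 2569.7 in WT CD4, 34136 ± 4207 in KO CD8, 32451 ± 830.7 in WT CD8 and 40173 ± 8218 in KO DP cells. Nolc1, a chaperone of snoRNPs, averaged 4511 ± 125.7 in KO CD4, 4849.6 ± 378.0 in WT CD4, 4336 ± 869.4 in KO CD8, 5033 ± 209.5 in WT CD8 and 4247 ± 639.5 in KO DP cells. Mybbp1a averaged 10334 ± 185.8 in KO CD4, 9671 ± 842.7 in WT CD4, 9956 ± 1247 in KO CD8, 9009 ± 240.1 in WT CD8 and 9692 ± 873.7 in KO DP cells. These overlapped between genotypes in both subsets, and without KO CD8 replicate 3 the lower Nolc1 of KO CD8 cells passed the threshold (adjusted p = 0.0170), as did the higher Mybbp1a without KO CD8 replicate 2 (0.0310).

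**Figure D2:**
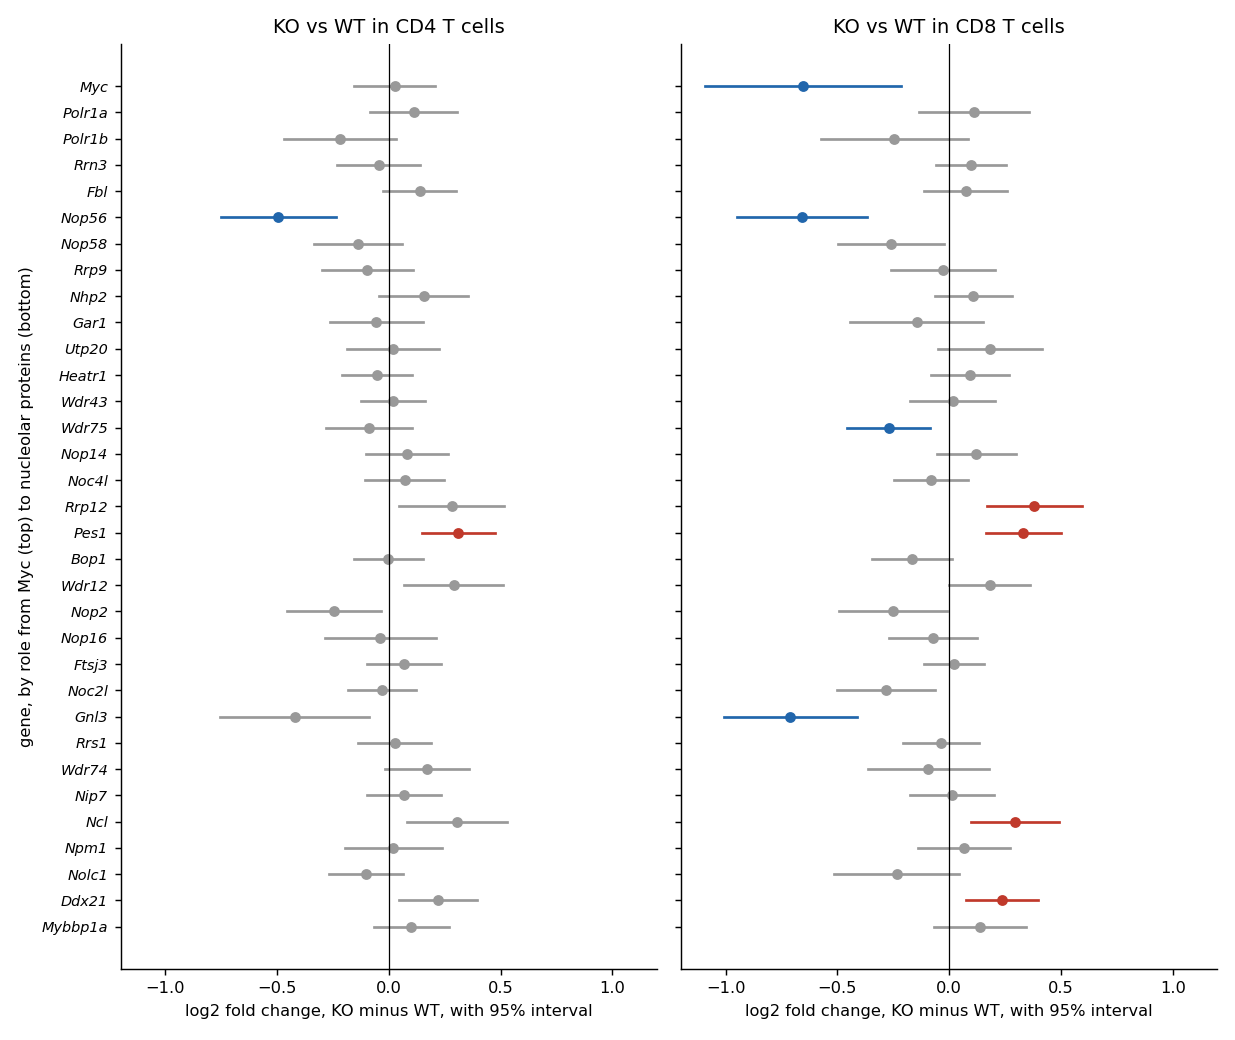
Log2 fold change, KO minus WT, of normalized counts for the 33 genes in CD4 cells (left) and CD8 cells (right), 4 libraries per group, with 95% intervals (lines); red marks genes called higher and blue genes called lower at an adjusted p under 0.05. Nop56 lies to the left and Pes1 to the right of 0 in both panels, and Myc lies at 0.03 in CD4 and -0.65 in CD8 cells.

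Levels can be set against each other only per length of the messenger RNA. Per kilobase of annotated mRNA, Npm1 was the most abundant of the 33 in all 5 groups, with group means from 23464 to 29048 normalized counts, and Utp20 the least, from 213.9 to 262.9. Myc had group means from 988.3 to 1570.3 per kilobase, close to Rrp9 (1143 to 1327) and Gar1 (1432 to 1620). For Ncl the figure of 5352 to 7048 rests on an annotated mRNA of 8257 nt, and depends on that annotation.

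WT CD4 and WT CD8 cells of the same animals were compared to see what separates the subsets where Dnmt3a is intact. Of the 33, 3 were higher in CD4 cells, beside 22.3% of 12559 genes tested, and 5 were lower, beside 22.2%. Wdr12 was higher in CD4 cells by 0.75 ± 0.072 (log2, SE; limma adjusted p = 2.13e-06) in 4 of 4 animals, followed by Utp20 (0.24; 0.0159) and Rrp9 (0.19; 0.0182). Lower in WT CD4 cells were Myc (-0.34; limma adjusted p = 0.000780; exact permutation p = 0.0286), Nop56 (-0.33; 2.75e-05), Gnl3 (-0.25; 0.00190), Nhp2 (-0.23; 0.0116) and Bop1 (-0.14; 0.0471). Myc, Nop56 and Gnl3 were thus each higher in the WT CD8 cells than in the WT CD4 cells. With the animal as a block 5 were higher and 6 lower, 11 in all beside 48.8% of all genes. Without WT CD4 replicate 6, which was low for many of the 33, 9 were higher, beside 2759 of 12536 genes tested. Without that library the median log2 fold change of the 33 went from -0.05 to 0.01. The fit over all 20 libraries called Wdr12 only, beside 888 genes higher and 722 lower in the whole table. The limma call ended for Utp20 without WT CD4 replicate 2 (adjusted p = 0.0507) or WT CD8 replicate 6 (0.0554) and for Rrp9 without WT CD8 replicate 2 (0.0586) or 3 (0.0596), and for Bop1 it was kept without WT CD4 replicate 3 or WT CD8 replicate 2 and ended on leaving out each of the other 6 libraries (0.0627 to 0.132). The Bop1 call also ended without a filter (0.0572), with scaling to a common 75th percentile (0.0607), without the trend (0.0912), with edgeR (0.0566) and with DESeq2 (0.0516), with 0.0286 to 0.299 over the alternative settings.

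KO CD4 against KO CD8 cells gave 1 of the 33, beside 4.22% of 12189 genes tested, and this was Wdr12, higher in CD4 cells by 0.86 ± 0.11 (limma adjusted p = 0.00361) in 4 of 4 animals. It was called in all 10 alternative settings and without each library in turn. Myc was not called between KO CD4 and KO CD8 cells, at 0.34 (95% interval -0.11 to 0.79; limma adjusted p = 0.499; exact permutation p = 0.229). The comparisons between subsets share their libraries with the genotype comparisons above, so their values are only set side by side.

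DP cells, which carry both coreceptors, could be compared only within KO animals. Against KO CD8 cells limma called 0 of the 33, beside 0.00823% of 12153 genes, and no gene of the 33 had an unadjusted p under 0.05; edgeR and DESeq2 also called 0. Against KO CD4 cells limma called 0 of the 33, beside 1.95% of 12175 genes, with 2 at an unadjusted p under 0.05 (Wdr12 and Nhp2), 0 in edgeR and 1 in DESeq2. Wdr12 was lower in DP than in CD4 cells by -0.66 (limma adjusted p = 0.0550) in all 4 animals, and with the animal as a block it was called (adjusted p = 0.0405; 0.000399 to 0.0978 over the alternative settings), which made 1 of the 33 beside 7.06% of all genes; without KO DP replicate 3 it was also called (0.0216). Myc in DP cells differed from CD8 cells by -0.04 (95% interval -0.58 to 0.51; exact permutation p = 0.914) and from CD4 cells by -0.38 (95% interval -0.76 to 0.01; exact permutation p = 0.0857), and it was below CD4 cells in all 4 animals. Without KO DP replicate 3, Myc against CD4 cells had limma adjusted p = 0.209, where it was 0.341 with all libraries.

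KO DP replicate 3 stood apart from the other DP libraries in a way that followed the length of the mRNA. Against the mean of the other KO DP libraries it was higher by a median of 0.44 on the log2 scale for the 11 shortest of the 33 mRNAs (902 to 2039 nt), by 0.22 for the 11 of middle length and lower, at -0.40, for the 11 longest (3450 to 8831 nt). Nhp2, the shortest, deviated by 1.12 and Utp20, the longest, by -1.38. Across the 33 genes, which are not independent replicates, Spearman's rho of deviation and length was -0.816, and across 11186 genes of the table it was -0.466, with medians of 0.46, 0.03 and -0.37 in the same length classes. Other libraries, each set against the mean of the other libraries of its group, also had a trend with length. Outside the KO DP group rho across the 33 ran from -0.467 in WT CD8 replicate 6 to 0.638 in WT CD8 replicate 2. It was 0.745, 0.444 and 0.468 in KO DP replicates 1, 2 and 4. The mean against which these 3 were set included replicate 3, so their trends are not independent of it. The classes and rho use annotated lengths, and Ncl is among the longest by an annotated mRNA of 8257 nt. The part of RNA length or quality in the DP values was not tested, and the DP comparison with CD8 cells called 0 of the 33 with or without replicate 3.

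**Figure D3:**
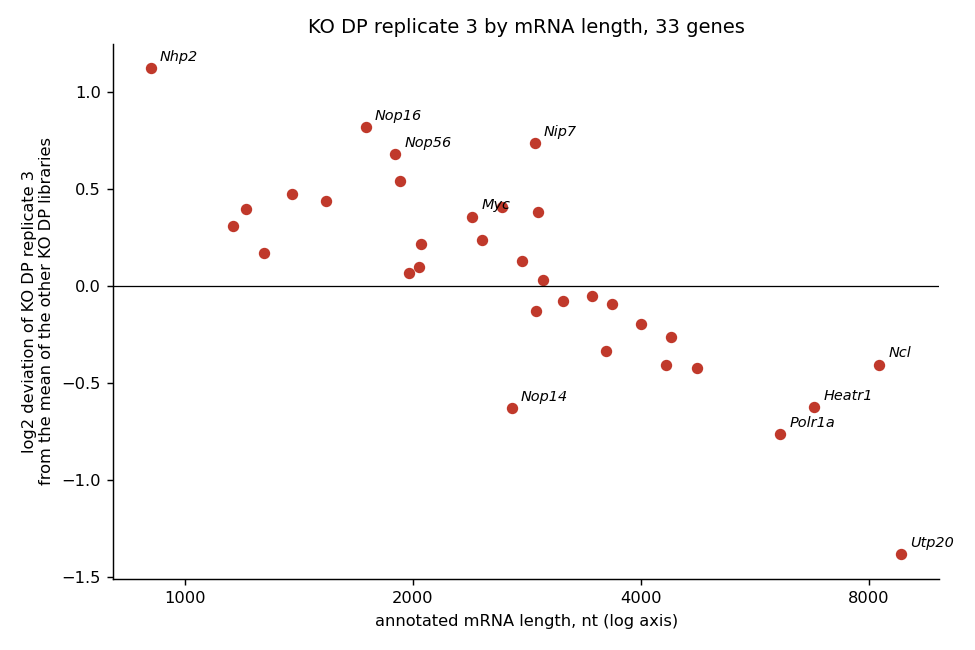
Deviation of KO DP replicate 3 from the mean of the other KO DP libraries (vertical axis, log2 of normalized counts) against annotated mRNA length in nt (horizontal axis, logarithmic) for the 33 genes (points). Short mRNAs such as Nhp2 (1.12) lie above 0 and long ones such as Utp20 (-1.38) below.

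Other genes of the same pathway were examined from wider lists. Of 94 further factors of RNA polymerase I, the subunit pathways and the snoRNPs, 92 were measured, and in CD4 cells 8 were higher and 5 lower in KO, beside 8.59% and 9.77% of all genes, with a median log2 fold change of 0.05. In CD8 cells 14 were higher and 8 lower, beside 12.6% and 12.5% of all genes, with a median of 0.02. Both directions occurred in each pathway except RNA polymerase I and the snoRNP assembly factors. For RNA polymerase I limma called Polr1d in CD4 cells and Polr1d and Twistnb in CD8 cells, all higher. Of all genes 8.59% and 12.6% were called higher. Other genes of that list, such as Taf1a and Taf1c, had negative log2 fold changes in both subsets and were not called. Of the snoRNP assembly factors limma called 0 of 10 in either subset (0 at an unadjusted p under 0.05, and 0 with edgeR and DESeq2). The polymerase subunit Polr1d was higher by 0.34 in CD4 and 0.37 in CD8 cells, and Twistnb, another subunit, by 0.28 in CD8 cells. Among small-subunit factors Nol10 was lower (-0.38 in CD4, -0.46 in CD8), as were Nat10 (-0.56) and Krr1 (-0.39) in CD8 cells, and Imp3 (0.33) and Nop9 (0.35) were higher in CD4 cells. Among large-subunit factors the AAA-ATPases Mdn1 (-0.75 in CD4) and Nvl (-0.50 in CD4, -0.61 in CD8) and the factor Ppan (-0.81 in CD8) were lower, and Gltscr2, also known as Nop53, was higher by 0.67 in CD4 and 0.77 in CD8 cells.

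Within the Myc network, Max, the obligate partner of Myc, was between 3567 and 5470 in all libraries. Over all genes tested limma called 8.59% higher and 9.77% lower in KO CD4 cells, and 12.6% and 12.5% in KO CD8 cells. Of 12 partners and antagonists it called, in CD4 cells, 2 of 11 tested, both lower, Zbtb17 (-0.31) and the weakly expressed Mycl (-2.85), and in CD8 cells 1 of 12, Mycl (-1.35; mean 29.1 in KO and 75.4 in WT). Of 25 metabolic genes known as Myc targets, limma called 4 in CD4 cells, all lower, and 4 in CD8 cells, 3 lower and 1 higher, with medians of -0.09 and -0.19. Odc1, the rate-limiting enzyme of polyamine synthesis, measured 8672, 10282, 17279.8 and 12636 in KO CD4 and 25845, 26344, 24918 and 26304 in WT CD4 cells. In CD8 cells Odc1 was 6053, 5869, 9209 and 8337 in KO and 9559, 10386, 10530.1 and 10457 in WT. All KO libraries were below all WT libraries of their subset, so Odc1 fell in CD4 cells (log2 fold change -1.13; limma adjusted p = 0.00462), where Myc was not called, and in CD8 cells (-0.50; 0.0297). Slc1a5, a glutamine transporter, was lower by -0.77 and the spermidine synthase Srm by -0.59 in KO CD8 cells, and Bcat1 (-1.04) and the transferrin receptor Tfrc (-0.61) were lower in KO CD4 cells.

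Other programmes differed between the genotypes along with these genes. Of 7 heat-shock genes limma called 3 in each subset, all lower in KO cells, beside 9.77% of all genes lower in CD4 and 12.5% in CD8 cells. Hspa1a was between 1435 and 10882 in WT libraries and between 0 and 126.6 in KO libraries (log2 fold changes -7.26 in CD4 and -7.42 in CD8), with Hspa1b (-7.08 and -7.05) and Hsph1 (-1.01 and -0.88) in the same direction. Immediate-early genes, which respond within minutes to signals and to handling of cells, were lower for 7 of 11 in each subset, beside the same shares of all genes, among them Fosb (-4.30 and -4.12), Fos (-3.01 and -3.00) and Jun (-2.72 and -2.97). Of 18 cell cycle genes limma called 0 in either subset (0 at an unadjusted p under 0.05, and 0 with edgeR and DESeq2), with medians of -0.31 and -0.29, while 17 of the 18 were lower in WT CD4 than in WT CD8 cells, beside 22.2% of all genes. Mki67 was 20095, 52393, 46374 and 42031 in KO CD8 and 40650.4, 53272, 39952 and 44198 in WT CD8 cells, with KO replicate 1 far below the rest. The part of these programmes in the differences of Myc, Nop56, Gnl3, Pes1 and Ncl was not tested.

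Markers of other cells also differed by genotype. Of the B-cell markers given here, Ms4a1 was at 0 in 18 libraries, and Cd74 was 1495, 925.0, 2277 and 1848 in KO CD4, 6351, 5246, 4847 and 4507 in WT CD4, 741.0, 405.6, 2492 and 2545 in KO CD8, 4291, 3032, 2659 and 3839 in WT CD8 and 852.4, 617.9, 1724 and 2331 in KO DP cells. By log2 fold change Cd79b was higher in KO (3.72 in CD4 and 3.21 in CD8), as was the weakly expressed Cd79a in CD4 cells (3.47; mean 70.3 in KO and 6.35 in WT), and Cd74 was lower in KO CD4 cells (-1.74).

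All 6 myeloid genes were measured. Itgam had the highest mean over all 20 libraries, but not in each group. In WT CD4 cells S100a9, Lyz2 and S100a8 had means of 802.1, 689.0 and 630.5, where Itgam had 323.9. The sum of the 6 genes was 709.3, 764.9, 2938 and 697.3 in KO CD4, 2174, 2768, 2661 and 3069 in WT CD4, 1811, 4489, 4343 and 1563 in KO CD8, 3452, 3755, 2612 and 4916 in WT CD8 and 1407, 2184, 6369 and 1384 in KO DP cells. Like sums could differ in make-up. In KO CD8 replicate 2 Itgam was 4216 and Lyz2 19.6, and in KO CD8 replicate 3 they were 2410 and 715.6. S100a8 and S100a9 were at 0 in the 3 libraries of KO animal 2 and highest in KO DP replicate 3, and Lyz2 was lower in KO CD4 cells (-3.03). Of 3 natural killer genes 2 were measured, Klrb1c made up nearly all of their sum, and Ncr1 was at 0 in 14 libraries. The sum was 474.2, 219.9, 401.1 and 1547 in KO CD4, 177.2, 155.9, 110.7 and 124.1 in WT CD4, 1354, 741.1, 676.3 and 3066 in KO CD8, 268.7, 318.6, 70.1 and 182.6 in WT CD8 and 1272, 665.0, 1079.8 and 2602 in KO DP cells. Klrb1c was higher in KO (1.85 in CD4 and 2.73 in CD8). The red cell list (5 genes) was not analysed here, and the part of other cells in the results was not tested.

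Several of the 33 genes hold snoRNA genes between their own start and end, so that their transcripts may also supply guide RNAs. Whether each snoRNA lies in an intron was not checked. In the RefSeq annotation 5 of the 33 (15.2%) hold at least 1 snoRNA on the same strand, against 185 of 14615 protein-coding genes of the table (1.27%). These were Nop56 with 5, Nop58 with 4, Gnl3 and Wdr43 with 3 each and Ncl with 2. Their KO minus WT differences in CD8 cells went in both directions, with Nop56 and Gnl3 called lower, Ncl called higher and Nop58 and Wdr43 not called, while in CD4 cells Nop56 was the one called. The snoRNAs themselves are not captured by libraries of polyadenylated RNA.

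Myc and Max bind the palindromic E-box CACGTG, which reads the same on both strands, and the promoters of the genes were searched for these letters because the set is defined around Myc. RefSeq promoter windows, from 250 bases before to 50 after the start on build GRCm38.p6, were found for 27 of the 33 genes, and 6 of the 27 (22.2%) held the motif, against 1313 of 12411 genes of the table (10.6%) and 2349 of all 32851 windows (7.15%). The difference between these shares was not tested, and a match is a description of the letters and not a site of binding. Stretches of up to 30 bases around the motif, which is in capitals, are shown in the 5′ to 3′ direction of the gene for the genes that held it, with the motif's position from the start (+1).
Rrn3, motif from -215, chr16:13780472-13780501, forward strand: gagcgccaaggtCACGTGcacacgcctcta
Rrn3, motif from -48, chr16:13780639-13780668, forward strand: ttacgctctgctCACGTGggccgcgtcccg
Utp20, motif from +38, chr10:88826765-88826789, reverse strand: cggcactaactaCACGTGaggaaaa
Wdr43, motif from +18, chr17:71616220-71616249, forward strand: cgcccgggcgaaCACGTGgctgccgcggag
Pes1, motif from +3, chr11:3963965-3963994, forward strand: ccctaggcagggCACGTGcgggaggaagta
Nop2, motif from -60, chr6:125131811-125131840, forward strand: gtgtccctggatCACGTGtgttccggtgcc
Mybbp1a, motif from +41, chr11:72441355-72441376, forward strand: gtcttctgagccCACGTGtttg

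The motif lay downstream of the start in Pes1, Wdr43, Utp20 and Mybbp1a and upstream of it in Nop2 and Rrn3. Of these genes Rrn3 alone held it more than once. Of the genes called between genotypes, Pes1 held the motif, Nop56, Gnl3, Ncl, Wdr75 and Ddx21 did not hold these letters in their windows, and Myc and Rrp12 were not among those with a window, nor were Fbl, Bop1, Rrs1 and Npm1. Nothing about Myc binding follows from either.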

How the data were processed

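Donor T cells were profiled by strand-specific RNA-seq of polyadenylated RNA in 20 libraries. The signal values were made by the authors, who aligned reads to mm10 with STAR, counted them on UCSC genes using strand, and divided the counts by 1 DESeq2 size factor per library; they are not per length, and the replicates were not pooled. Whole reads were recovered from the steps in each column (100% of values within 0.001 of a whole number), which gave the depth per library.

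From these values, log2(normalized count + 1) was fitted for each comparison with limma 3.58.1 in R 4.3.3 (variance trend, genes with a mean of at least 10, Benjamini-Hochberg adjustment over all genes tested, threshold 0.05). For Myc an exact permutation test, two-sided, was added. The fits were tested on simulated data for KO against WT CD8 cells. DESeq2 made more false calls there than limma and edgeR, so a call by DESeq2 alone carries less weight. It also found more of the differences put into those data. Limma and edgeR missed most of the smaller ones, so a gene that was not called is not shown to be unchanged. The alternative settings were a pseudocount of 10, no filter, a minimum mean of 50, scaling to a common 75th percentile, quantile normalization, no variance trend, edgeR 4.0.16 and DESeq2 1.42.0 on the recovered reads, a fit over all 20 libraries and, between cells of the same animals, the animal as a block (9 settings for KO against WT and 10 elsewhere); leaving out each library in turn is counted apart from these.

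The animal number marks the same animal within KO and within WT groups, and same-numbered libraries deviated together: correlations were 0.412 to 0.498 for KO CD4 with KO CD8, 0.271 to 0.457 for KO CD4 with KO DP, 0.338 to 0.538 for KO CD8 with KO DP and 0.12 to 0.196 for WT CD4 with WT CD8.

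Members and lists were chosen with earlier results of these data known. All members are named with group means or every library; every library is given for Myc and, in each role, for the member with the smallest p and that with the highest mean count. From each other list the 3 called genes that changed most and had a mean of 50 or more are named for each comparison of KO with WT; Mycl in CD4 cells and Cd79a, both below that mean, are named as well.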

Additional observations from a re-analysis of the deposited data

Results flagged for a closer look

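In each group of 4 libraries the highest or lowest value was compared with the others by the gap to its neighbour over the range of the group (Dixon's test). Of 165 groups examined, 11 had a value that stood apart, where chance gives about 1 in 20 groups.

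KO DP replicate 3 gave 4 of them. Heatr1 was at 2592 there (3964 to 4044 in the other KO DP libraries) and Ddx21 at 13216 (17606 to 17798), while Wdr74 was at 1868 (1402 to 1434) and Nip7 at 3299 (1907 to 2053). WT CD4 replicate 6 was low for Nhp2 (2857), Wdr12 (1667) and Nolc1 (4287), where the other WT CD4 libraries had at least 3395, 1943 and 4983. WT CD8 replicate 3 was high for Nop58 (6741) and for Heatr1 (4287). KO CD8 replicate 3 was high for Bop1 (4837), and KO CD8 replicate 2 was low for Wdr12 (1196).

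The KO minus WT difference of Myc was higher by 0.68 (log2) in CD4 than in CD8 cells, a difference between subsets that passed the limma threshold with the animal as a block (adjusted p = 0.0489; 0.0489 to 1.00 over the alternative settings). KO was lower than WT on average in CD8 cells, with 1 KO library inside the WT range.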

How the results depend on the processing

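No direction turned in any alternative for a gene past the threshold. In KO against WT CD4 cells the members called lower became 0 without the variance trend and in the fit over all 20 libraries, and those called higher became 2 with edgeR and 4 with DESeq2. Among all genes those called lower went from 1210 to 814 and 671 under the first 2 of these settings. Those called higher went from 1064 to 1254 with edgeR and 1646 with DESeq2. In CD8 cells the members called higher became 2 without a filter, with quantile normalization, without the trend and in the fit over all 20 libraries, and those called lower became 2 without the trend. Among all genes those called higher went from 1566 to 1407 (of 16439 tested), 1553, 1198 and 956 in these settings. Those called lower went from 1552 to 1353 without the trend. Myc in CD8 cells was -0.65 without the trend (limma adjusted p = 0.0711) and -0.59 with edgeR (0.0529). In KO DP against KO CD4 cells 1 member was called with a pseudocount of 10 and with DESeq2, and 2 in the fit over all 20 libraries. Among all genes these settings called 95, 272 and 559 higher and 199, 456 and 900 lower, from 83 and 154. In WT CD4 against WT CD8 cells the fit over all 20 libraries called 1 member higher and 0 lower, and Myc at -0.34 was no longer called (limma adjusted p = 0.250). Among all genes that fit called 888 higher and 722 lower, where the main fit called 2801 and 2791. The cause was not tested.

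With the animal as a replicate block, KO DP against KO CD4 cells called 1 member, WT CD4 against WT CD8 cells called 5 higher, and the interaction called 1, Myc (adjusted p = 0.0489). KO and WT animals share only the numbers 2 and 3, which mark different animals; same-numbered libraries correlated at 0.0696 to 0.0846 in CD4 and -0.0024 to 0.099 in CD8 cells. With that number as a replicate block, 0 members were called higher and 0 lower in CD4 and in CD8 cells, and Myc in CD8 cells was -0.58 (limma adjusted p = 0.280). Only the libraries numbered 2 and 3 bear on the difference in this fit, since every other number occurs in KO or in WT alone. Its lack of calls is therefore no check on the fits that use all libraries. Few genes of any kind were called in this fit. It gave 10 higher and 16 lower of 12391 genes in CD4 cells, and 18 higher and 71 lower of 12383 in CD8 cells.

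Leaving out 1 library at a time, members called higher ranged from 0 to 4 and lower from 0 to 3 in CD4 cells, and higher from 1 to 4 and lower from 2 to 9 in CD8 cells, where Myc ranged from -0.84 to -0.49. Calls over all genes ranged from 295 to 1343 higher and from 333 to 1620 lower in CD4 cells. For CD8 cells the ranges were 822 to 1986 and 811 to 2106. KO DP against KO CD4 cells gave 0 to 1 members, beside 35 to 88 genes higher and 49 to 191 lower. In WT CD4 against WT CD8 cells 2 to 9 members were higher, beside 2530 to 2759 genes, and the member median ranged from -0.0751 to 0.0126. For single genes other than Myc under the other alternatives, 137 values called kept their call and 33 lost it. Of those not called 2053 remained so and 17 passed. These counts, and those of Myc below, include KO against WT with the replicate number as a block, where every member call ended. Leaving out libraries, 101 kept and 35 lost their call, and 1887 remained uncalled and 25 passed. Myc lost its call in 4 of the other alternatives, given above, and in CD8 cells in 7 of 8 fits that leave out a library (adjusted p 0.0586 to 0.101), and passed in 1, the interaction with the block.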
